A study of Caenorhabditis elegans with 11 samples.

Results

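The general protein-folding machinery of Caenorhabditis elegans was followed through exposure to high oxygen, with and without RNA interference (RNAi) against skn-1. Its members were chosen by gene symbol: every dnj, cct and pfd gene with a number, and hsp-1, hsp-70, hsp-75, hsp-90 (also called daf-21), hsp-110, sti-1, cdc-37, chn-1, bag-1, unc-23 and hsf-1. On the array 82 of 22625 probe sets, for 54 of 17118 named genes, carried 1 of these symbols. Of the 82, 80 probe sets for 53 genes were bright enough to be tested. The remaining pair, dnj-24 (183888_at) and a dnj-12 probe set (175394_at), gave signals of 1.7 to 47.5 and 1.0 to 16.6 and were not tested. The tested probe sets comprised 7 for HSP70-type chaperones and their exchange factors, 5 for HSP90 and its partners, 43 for J-domain proteins, 15 for the chaperonin CCT, 6 for prefoldin, 2 for chn-1 and 2 for hsf-1. Most of these genes encode cytosolic proteins, but the choice by symbol also took in proteins of other compartments. The product of hsp-75 is a mitochondrial HSP90, dnj-10, dnj-15 and dnj-21 are counterparts of mitochondrial J proteins, and dnj-7, dnj-20, dnj-27 and dnj-29 of J proteins of the endoplasmic reticulum (ER). The members are therefore called chaperones and cochaperones here, without a compartment.

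SKN-1 is a transcription factor of the Nrf family, and the series asked which responses to oxidative stress depend on it. RNA came from whole hermaphrodites grown at 25°C from the L1 stage, sterile and 3 days old, on 1 Affymetrix array per sample. Control worms (n = 4) were unstressed, oxygen worms (n = 4) spent 6 hours at 20°C in an atmosphere of 99% oxygen, at a pressure of 40 PSI, and the last group (n = 3) had skn-1 RNAi and the same label of oxidative stress. The strain is TJ1090 in the sample labels and TJ1060 in the design text, and was not settled here. No pressure or temperature is given for the controls, so oxygen, pressure, temperature and handling cannot be told apart. Neither unstressed worms with skn-1 RNAi nor worms on a control RNAi food are analysed here, so a difference of the RNAi group from the oxygen group holds the food as well as the RNAi. Whole worms were extracted, so that fewer cells of a type and less RNA per cell cannot be told apart.

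Values are MAS5 signals, linear brightness units that compare arrays for a probe set but not probe sets with each other. The arrays fell into 2 sets by their spike-in signal: set 1 held control 1 and 2 and oxygen 1 and 2, and set 2 held the other 7 arrays, among them all 3 RNAi arrays. Array medians were 27.4 to 44.5 in set 1 and 57.4 to 79.1 in set 2. Control 4 had a mean correlation of 0.822 to its own group, against 0.888 to 0.893 for the other controls. The oxygen marker gst-4, a glutathione S-transferase, rose under oxygen from 365 ± 283 to 4528 ± 522 (SD, n = 4 each; limma adjusted p = 0.00149). With RNAi and oxygen gst-4 read 1240 ± 516 (SD, n = 3), a log2 difference of −1.94 from oxygen that was not called (limma adjusted p = 0.258). The 3 skn-1 probe sets did not pass the test between RNAi and oxygen worms (adjusted p = 0.547 to 0.769). After blocking on the set, 1 of the skn-1 probe sets was lower in RNAi worms than in controls (log2 −1.01, adjusted p = 0.0341), and the 3 probe sets were −0.92, −0.76 and −0.48 against oxygen (adjusted p = 0.11, 0.318 and 0.463).

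Chaperones bind proteins that are not yet folded, or no longer are, and keep them from aggregating. HSP70 takes clients from J-domain proteins, which stimulate its ATPase, and releases them with nucleotide exchange factors of the HSP110 and BAG families; HSP90 finishes kinases and receptors, some of which reach it through the adaptor STI-1 or the kinase partner CDC-37. Prefoldin hands new actin and tubulin to the ring-shaped chaperonin CCT, the ubiquitin ligase CHIP marks clients that fail, and the heat shock factor HSF-1 drives many of these genes when folding is disturbed.

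No chaperone or cochaperone passed the test between oxygen and control worms: 0 of 80 probe sets were called higher and 0 lower, where 3.29% of all 15389 tested probe sets were called higher and 0.539% lower. A probe set was called when its limma p, adjusted by Benjamini-Hochberg over all 15389, was under 0.05. At an unadjusted p under 0.05 there were 3 members higher (hsp-70, unc-23 and dnj-1) and 0 lower, which is 3.75% of the members against 14.5% of all probe sets in either direction. The members' median log2 difference was −0.10, with a range from −0.40 to 2.03, and the median of all tested probe sets was 0.06. For 54 of 80 members the 95% interval of the difference lay within 1 log2 unit of 0, so that a larger change was outside it. For the other 26 the interval reached further, and with this number of arrays a change of that size was inside it.

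**Figure D1:**
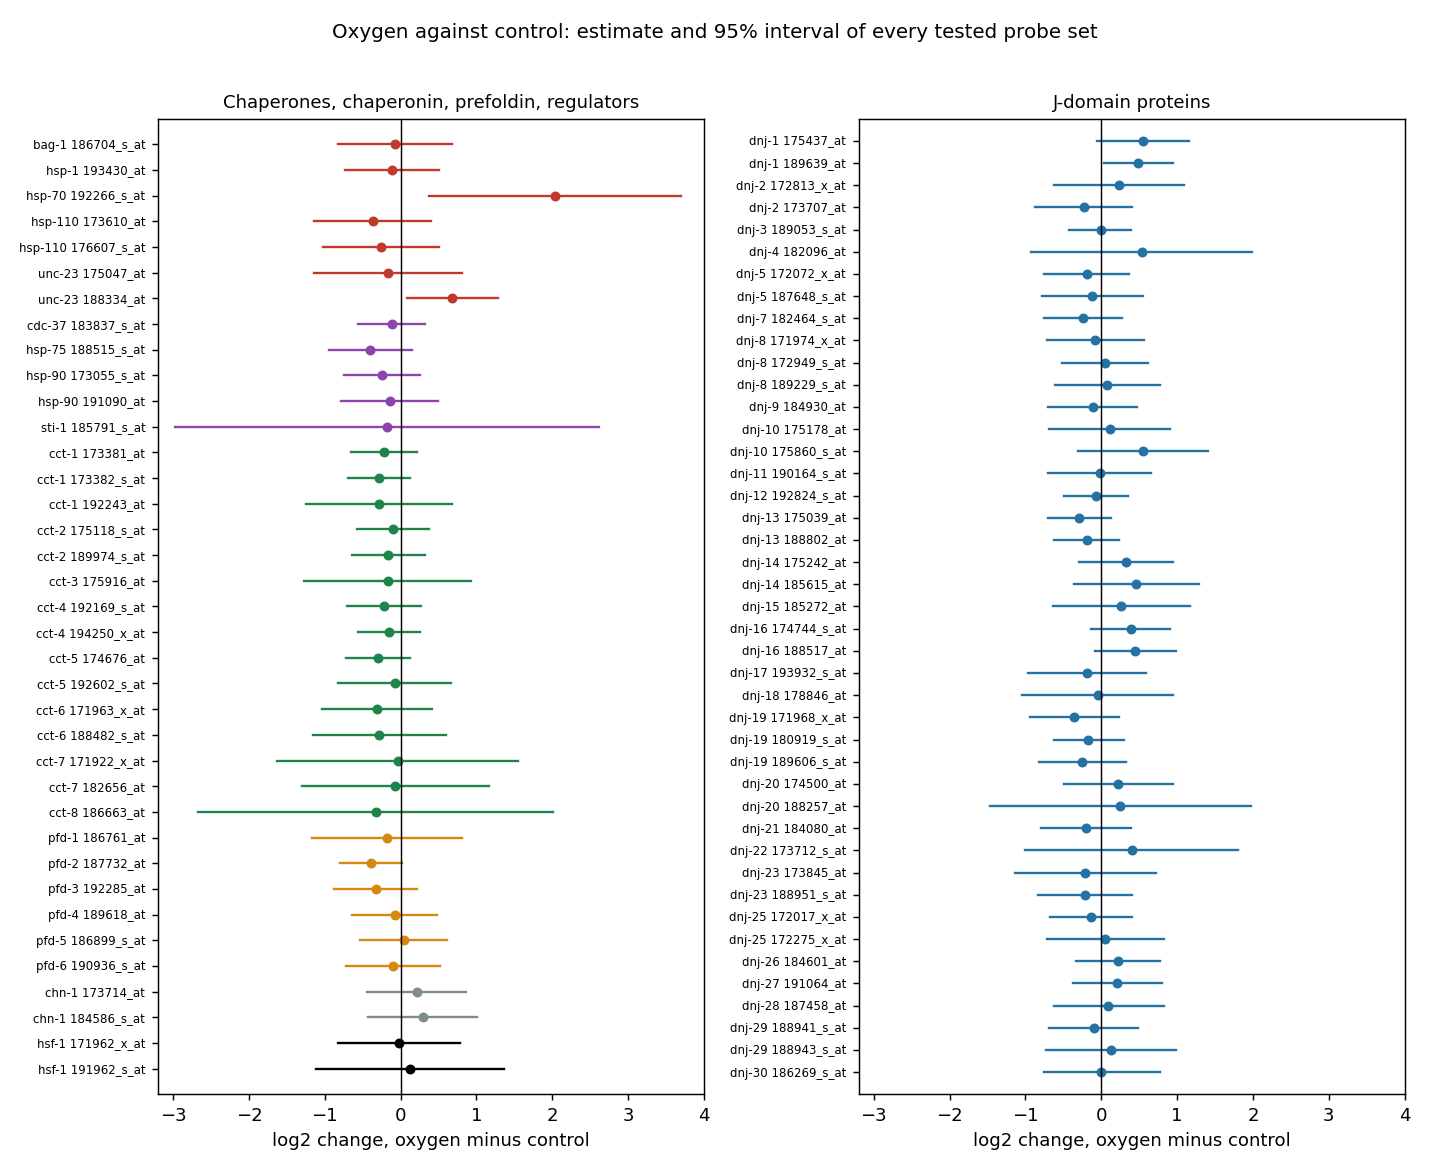
Log2 change of oxygen against control for all 80 tested probe sets, with gene and probe set on the vertical axis and points for the estimate with bars for the 95% interval (4 against 4 arrays); colours mark the roles (red HSP70-type, purple HSP90-type, blue J-domain, green CCT, orange prefoldin, grey chn-1, black hsf-1). The estimates run from −0.40 to 2.03, and hsp-70 lies apart from the rest on the right.

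Among the HSP70-type members, hsp-70, the stress-inducible form, had the highest difference under oxygen. Its signal was 5.4, 5.5, 4.5 and 48.8 in control 1 to 4, 46.7, 15.1, 72.5 and 35.2 in oxygen 1 to 4, and 59.8, 40.1 and 57.8 in the RNAi arrays. The first 3 controls lay below every oxygen array, and control 4 lay above 3 of the 4. The log2 difference was 2.03 ± 0.75 (SE) and was not called (adjusted p = 0.217); no fold is given, since the controls were so dim. Without control 4 it did, at log2 2.84 ± 0.46 and an adjusted p of 0.0115, so that 1 array decides the call. In set 1, where control 4 does not enter, the log2 difference was 2.28, and in set 2 it was 1.77. The probe set is of the type that Affymetrix marks as matching several transcripts, so signal from near-identical HSP70 genes cannot be separated from that of hsp-70, and 3 controls and 2 oxygen arrays lay below the 40th percentile of their array.

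Constitutive HSP70, the product of hsp-1, read 4675.8, 4612.2, 6414.2 and 8765.6 in controls and 4452.2, 4198.9, 6156.7 and 7545.8 under oxygen. The groups overlapped over most of their range, and the log2 difference was −0.12 ± 0.28 (adjusted p = 0.942). Both probe sets of hsp-110, an exchange factor that also takes part in breaking up aggregates, had lower oxygen means, at log2 −0.37 ± 0.35 and −0.26 ± 0.34 (adjusted p = 0.764 and 0.87).

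BAG-domain proteins release clients from HSP70, and unc-23 encodes one that is needed for muscle attachment. On 188334_at its signals were 68.6, 54.2, 79.3 and 116.1 in controls and 108.0, 112.7, 110.6 and 169.4 under oxygen, so that only control 4 reached into the oxygen range. The log2 difference was 0.68 ± 0.27 and was not called (adjusted p = 0.261). Its other probe set, 175047_at, did not follow it, with means of 76.2 ± 32.7 and 71.4 ± 42.7 (SD, n = 4 each). The signal of bag-1 was 1202 ± 523 in controls and 1085 ± 288 under oxygen.

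All 5 HSP90-type probe sets had estimates below 0 under oxygen, from −0.40 to −0.12, and none was called; 45.4% of all tested probe sets were below 0. Without control 4 the estimates were below 0 for 3 of 5, with a median of −0.08 in place of −0.18. That left the array sets uneven between the groups, and all 5 probe sets were higher in set 2. With the set as a block as well, 4 of 5 were below 0 and the median was −0.15. For the cytosolic chaperone hsp-90, 191090_at read 4723.3, 4539.2, 6455.5 and 10038.8 in controls and 4729.5, 4406.9, 6346.0 and 7032.8 under oxygen. The arrays paired off by set rather than by treatment, and the log2 difference was −0.14 ± 0.29 (adjusted p = 0.932). The second hsp-90 probe set gave −0.25 ± 0.23 (adjusted p = 0.748). Mitochondrial hsp-75 had the lowest estimate of all members, −0.40 ± 0.25 (adjusted p = 0.563), with signals of 168.3, 187.9, 275.8 and 207.4 in controls and 143.4, 109.4, 184.2 and 206.3 under oxygen. For sti-1 the interval ran from −2.97 to 2.62 log2, since its signal differed far more between the array sets than between the groups.

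J-domain proteins, the largest family, were spread evenly about 0: 22 probe sets had higher and 21 lower oxygen means, with a median log2 difference of 0.00 and a range of −0.36 to 0.55. The gene nearest to a call was dnj-1, on both of its probe sets. On 189639_at the controls read 208.9, 239.0, 251.3 and 193.9 and the oxygen arrays 287.4, 260.1, 375.4 and 333.6. Every oxygen array lay above every control, which held for 1 of 80 members against 6.6% of all probe sets, and the difference was 1.4-fold (log2 0.49 ± 0.20, adjusted p = 0.292). The second dnj-1 probe set gave log2 0.55 ± 0.27 (adjusted p = 0.418), with 404.5, 414.3, 536.1 and 325.1 in controls and 457.5, 464.9, 751.2 and 838.9 under oxygen. Of the partners of hsp-1 and hsp-110 in disaggregation, dnj-13 read 1400 ± 152 in controls and 1153 ± 183 under oxygen on 175039_at. The counterpart of the synaptic cysteine string protein, dnj-14, had means of 184 ± 76.7 and 237 ± 57.8 on 185615_at, and the counterpart of the clathrin uncoating factor auxilin, dnj-25, 373 ± 78.4 and 338 ± 55.1 on 172017_x_at.

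Control 4 deviated in opposite ways for the J-domain proteins and the chaperonin. It was the lowest control for 24 of 43 J-domain probe sets (55.8%, against 28.8% of all tested probe sets) and the highest for 13 of 15 CCT probe sets (86.7%, against 42.8%). For dnj-22, for instance, the controls read 763.5, 757.6, 617.0 and 86.1. The median J-domain difference under oxygen was −0.16 without this array, with 16 probe sets above 0 and 27 below.

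The chaperonin CCT is a ring of different subunits, and all 8 of the cct genes were measured, with 15 probe sets. Every one of the 15 had a lower mean log2 signal under oxygen, by small amounts: the median was −0.22 and the range −0.33 to −0.04, and 0 were called. Estimates below 0 made up 45.4% of all tested probe sets. The common sign rested partly on 1 array, since without control 4 the estimates were below 0 for 9 of 15 and the median was −0.02. Leaving out control 4 also made the array sets uneven between the groups, and 13 of 15 CCT probe sets were higher in set 2. With the set as a block as well, 12 of 15 were below 0 and the median was −0.08. Across the array sets, which share no array, 8 of 15 CCT probe sets were below 0 in both. The same sign in both sets was found for 53.3% of them, against 66.8% of all probe sets. The CCT median was −0.02 in set 1, with 6 of 15 above 0, and −0.41 in set 2, which holds control 4. The nearest to a call was cct-5 on 174676_at, with controls at 854.6, 973.0, 1215.4 and 1163.8 and oxygen arrays at 929.8, 764.8, 930.1 and 778.4. These ranges overlapped, and the log2 difference was −0.30 ± 0.19 (adjusted p = 0.572). For cct-1 on 173382_s_at all oxygen arrays (1555.3 to 1831.6) lay just below all controls (1843.9 to 2667.9).

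Prefoldin had lower oxygen means for 5 of its 6 subunits, with a median of −0.14 and 0 calls. The widest separation was that of pfd-2, which read 1602.8, 1489.9, 1506.8 and 2069.1 in controls and 1250.8, 1428.6, 1226.9 and 1146.6 under oxygen. All oxygen arrays lay below all controls, as they did for 2 of 80 members (pfd-2 and cct-1) against 3.76% of all probe sets, and the log2 difference was −0.39 ± 0.19 (adjusted p = 0.383). Among the actin and tubulin genes whose products CCT folds, 11 of 13 were tested, 0 of them had a positive estimate and the median was −0.21; 1, the intestinal actin act-5, fell under oxygen (1896 ± 1055 to 440 ± 129, SD, n = 4 each; adjusted p = 0.0309).

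Germ line markers had estimates on the same side of 0 as most CCT, prefoldin and HSP90 probe sets. Of 20 oocyte and germ line markers 0 had a positive estimate, the median was −0.39 and 1 (glh-1) was called lower; their summed signal was 51648 to 76611 in controls, 43335 to 52956 under oxygen and 51461 to 54735 with RNAi. Summed signals of 9 intestine markers were 12321 to 23991, 12105 to 16003 and 11122 to 15417 in the same groups, and 3 of the 9 (pept-1, nhx-2 and act-5) fell under oxygen. Sperm markers, in worms labelled sterile, summed to 815 to 7383, 1180 to 9039 and 6199 to 7969. Under oxygen the medians of intestine (−0.16), epidermis (−0.24) and embryo markers (−0.19) were also below 0. Those of body wall muscle (0.05), pharynx (0.26), neuron (0.40) and sperm markers (0.53) were above 0. The part of these tissues in the chaperone estimates was not tested.

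The ubiquitin ligase gene chn-1 had oxygen estimates of 0.21 ± 0.29 and 0.29 ± 0.32 on its probe sets (adjusted p = 0.883 and 0.826). On 184586_s_at the signals were 669.3, 625.7, 525.9 and 263.0 in controls and 640.5, 752.2, 684.5 and 394.4 under oxygen, with array 4 the lowest of both groups. The regulator hsf-1 gave 0.12 ± 0.56 and −0.02 ± 0.36 (adjusted p = 0.977 and 0.995). On 191962_s_at it read 74.7, 94.0, 340.0 and 239.1 in controls and 146.2, 74.1, 232.9 and 315.9 under oxygen, so that set 1 was low and set 2 high in both groups. A transcript level is no measure of HSF-1 activity.

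**Figure D2:**
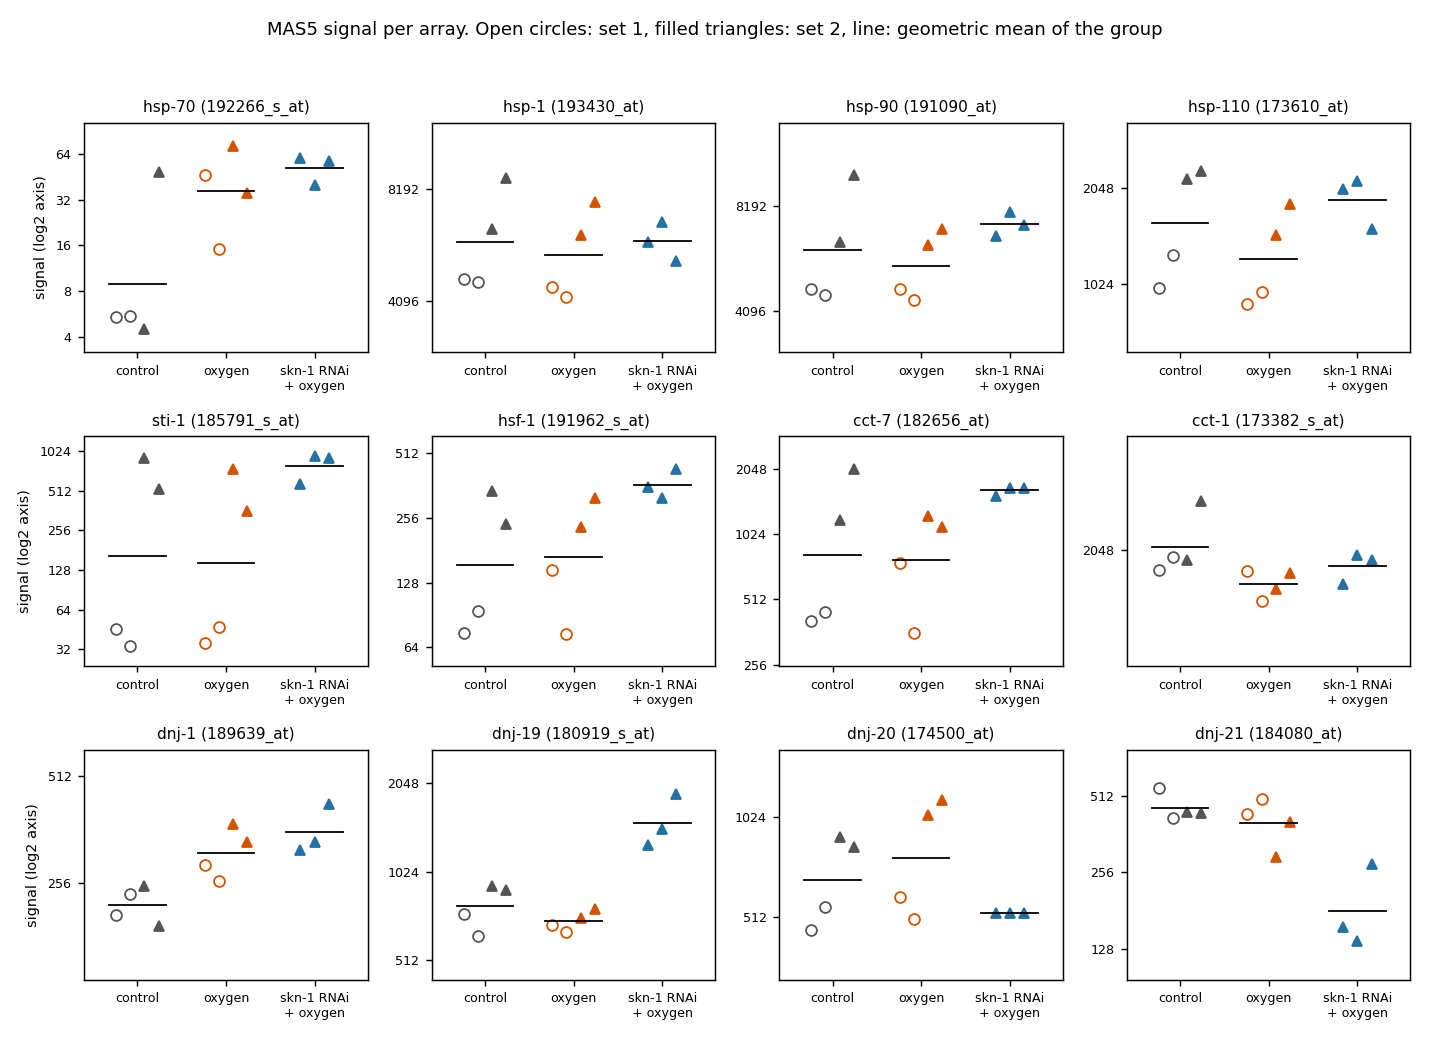
MAS5 signal per array on log2 axes for 12 probe sets, in control (grey, n = 4), oxygen (orange, n = 4) and skn-1 RNAi with oxygen (blue, n = 3); open circles are set 1 arrays, filled triangles set 2 arrays, and lines the geometric mean of the group. For sti-1, cct-7 and hsf-1 the triangles lie above the circles of the same group; for dnj-21 the RNAi arrays (137.1 to 276.1) lie below all others, and for dnj-19 (1262.8 to 1876.9) above all others.

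The array set moved many members more than the treatment did. With group in the fit, 24 of 80 members were higher and 8 lower in set 2 (40.0%), against 36.8% higher and 7.53% lower of all tested probe sets (44.4%). The gene that differed most was sti-1, with signals of 45.2, 33.7, 35.6 and 47.0 on the 4 set 1 arrays and 357.8 to 939.0 on the 7 set 2 arrays. This was a 14.9-fold difference (log2 3.9 ± 0.30, adjusted p = 6.77e-05). Of the CCT probe sets 8 of 15 were higher in set 2 and 0 lower, led by cct-8 (log2 2.85 ± 0.58, adjusted p = 0.00396) and both of cct-7 (2.12, adjusted p = 0.000448, and 1.52, adjusted p = 0.00229). Both hsf-1 probe sets were higher too (1.57 and 0.93; adjusted p = 0.00135 and 0.00484). Prefoldin went the other way, with 3 of 6 lower and 0 higher, and bag-1 was lower by 0.90 (adjusted p = 0.00248). The sets were told apart by spike-in signal. Their scaling differed as well: the mean signal after trimming 2% at each end was 250.1 on every set 2 array and 206.8 to 216.3 in set 1. The labels name 2 facilities for hybridisation and scanning without saying which array went to which. Whether labelling, hybridisation, scanning, scaling or the worms made the difference cannot be told apart.

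**Figure D3:**
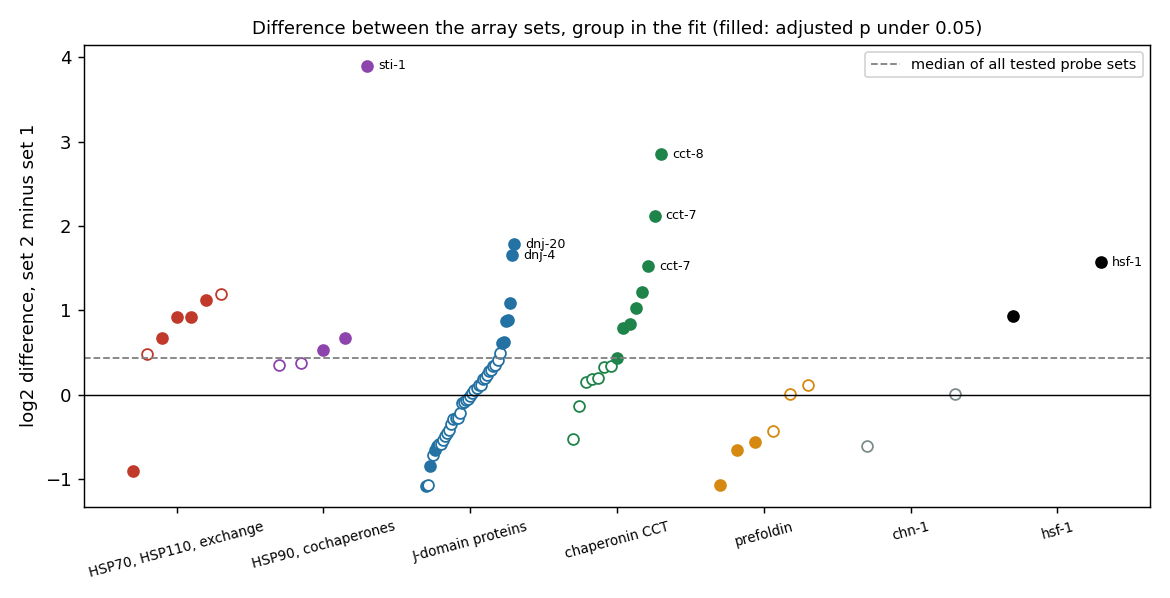
Log2 difference of set 2 minus set 1 (vertical axis) for the 80 tested probe sets by role, from the fit with group and set; filled points passed an adjusted p of 0.05, and the dashed line is the median of all tested probe sets, 0.44. HSP70-type, HSP90-type, CCT and hsf-1 probe sets lie mostly above 0, and prefoldin mostly below.

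Adding the set to the fit as a block left the oxygen estimates as they were, since both sets held 2 arrays of each group, and narrowed their intervals: 67 of 80 then lay within 1 log2 unit of 0. Still 0 members were called, while the share of all probe sets called rose to 9.26%; at an unadjusted p under 0.05 there were 6 members (7.5%) against 23.8% of all probe sets. Without control 4 the blocked fit called 2 members higher (2.5%, against 6.92% of all probe sets), hsp-70 (2.77, adjusted p = 0.00954) and unc-23 on 188334_at (0.83, adjusted p = 0.0403). The oxygen difference was also estimated in each set on its own arrays. The sign was the same for 51 of 80 members (63.8%), against 66.8% of all probe sets. Above 0.5 in both sets were 2 of 80 members, hsp-70 and unc-23 (188334_at), against 2137 of all 15389 probe sets. For unc-23 these differences were 0.86 in set 1 and 0.51 in set 2. The oxygen effect differed between the sets for 0 members after adjustment and for 1, dnj-25 on 172275_x_at, at an unadjusted p of 0.0299; limma called 0 of all probe sets, and 5.95% had an unadjusted p under 0.05.

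**Figure D4:**
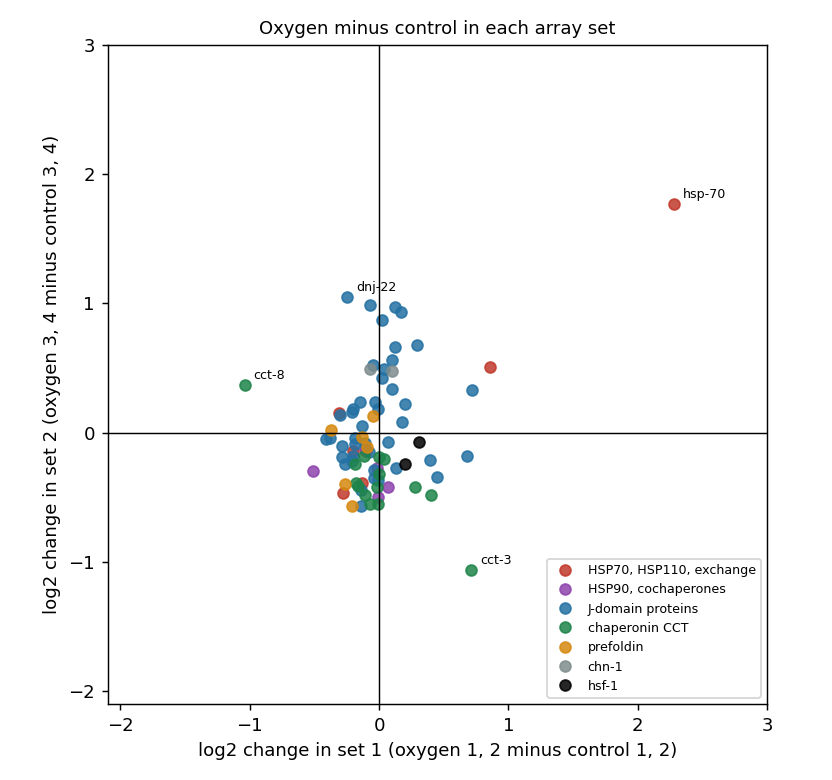
Log2 change of oxygen against control within set 1 (horizontal axis, 2 against 2 arrays) and within set 2 (vertical axis, 2 against 2 arrays) for each of 80 tested probe sets, coloured by role. Most members lie within 0.5 of 0 on the horizontal axis, and hsp-70 (2.28 and 1.77) stands apart in the upper right.

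Between skn-1 RNAi with oxygen and oxygen alone, 0 of 80 members were called higher and 0 lower, where 0.0455% and 0.182% of all probe sets were called. This comparison shares the oxygen arrays with the one above. At an unadjusted p under 0.05 there were 7 members higher and 2 lower (11.2%, against 9.77% of all probe sets). The median difference of the members was 0.24, and that of all probe sets 0.22. All RNAi arrays lay in set 2, so values after blocking on the set are given as well. With the block, 12 of 80 members had an unadjusted p under 0.05 (15%, against 13.9% of all probe sets).

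The J-domain gene dnj-19, of the DNAJA type, was nearest to a call on 180919_s_at. Its RNAi arrays read 1262.8, 1428.7 and 1876.9, the oxygen arrays 673.5, 640.2, 712.6 and 763.4 and the controls 737.3, 621.7, 919.3 and 885.3. All RNAi arrays lay above all others, at 2.16 times the oxygen level (95% interval 1.53 to 3.05; log2 1.11 ± 0.22, adjusted p = 0.108). After blocking on the set the difference was 0.96 (adjusted p = 0.0699). It passed the test where fewer dim probe sets were tested or their weight was reduced (adjusted p = 0.0454 and 0.0482). The other probe sets of dnj-19 did not show it to this degree: 171968_x_at had means of 617 ± 173 (oxygen, n = 4) and 583 ± 74.1 (RNAi, n = 3), and 189606_s_at 563 ± 142.5 and 791 ± 86.9.

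In the opposite direction, dnj-21, the counterpart of a J protein of the mitochondrial import motor in yeast and mammals, read 156.9, 137.1 and 276.1 with RNAi and 433.7, 494.7, 292.9 and 403.4 under oxygen. The RNAi arrays lay below all oxygen arrays, but the log2 difference of −1.14 ± 0.29 was not called (adjusted p = 0.246), nor was that of −1.0 found after blocking on the set (adjusted p = 0.178). Further members with the smallest p were cdc-37 (log2 0.66 ± 0.21, adjusted p = 0.393), dnj-12 on 192824_s_at (0.62 ± 0.20, adjusted p = 0.397) and cct-5 on 174676_at (0.57 ± 0.20, adjusted p = 0.441). Under the block these were 0.49, 0.58 and 0.47 (adjusted p = 0.24, 0.239 and 0.3). For cdc-37 the RNAi arrays read 645.3, 610.3 and 714.8 and the oxygen arrays 411.9, 331.6, 471.7 and 458.7, without overlap. For dnj-12, also of the DNAJA type, they read 1275.6, 1220.3 and 1345.8 against 1027.8, 727.6, 819.9 and 778.5.

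CCT had RNAi means above the oxygen means for 14 of 15 probe sets, with a median log2 difference of 0.57, and 8 of them, in 6 genes, did not overlap between the groups. Over all members 19 of 80 were higher without overlap, against 12% of all probe sets, and 3 were lower, against 5.21%. The set differences given above ran in the same direction, and after blocking on the set the CCT median was 0.20, with 12 of 15 above 0. Body wall muscle markers were above 0 for 9 of 9 (median 0.74, or 0.42 under the block), with summed signals of 10612 to 13906 under oxygen and 16028 to 19055 with RNAi. Neuron markers were above 0 for 8 of 11 (median 0.75, or 0.13 under the block), with sums of 3211 to 5138 and 4358 to 4948, and none of either list was called. Sperm markers were above 0 for 9 of 9 (median 1.3, or 0.15 under the block). Germ line markers were for 17 of 20 (0.21, or 0.13) and pharynx markers for 5 of 6 (0.45, or −0.01). Embryo markers were for 3 of 4 (0.39, or 0.28), intestine for 6 of 9 (0.14, or 0.02) and epidermis for 4 of 7 (0.04, or −0.7). Without the block 66.4% of all tested probe sets were above 0. The part of these tissues in the CCT estimates was not tested. For hsf-1 the estimate was also smaller with the block, where 191962_s_at gave 1.12 ± 0.60 (adjusted p = 0.547) without it and 0.33 (adjusted p = 0.648) with it. The HSP90-type median went from 0.50 to 0.29, that of J-domain proteins from 0.20 to 0.21, and that of all tested probe sets from 0.22 to 0.02. Prefoldin had a median of −0.21, or 0.10 with the block, and its lowest member was pfd-6 at −0.76 ± 0.30 (adjusted p = 0.472), or −0.43 under the block (adjusted p = 0.371).

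A J-domain gene outside the rule for naming genes, chosen after its values were seen, was the only member called between RNAi and oxygen worms after blocking on the set. The counterpart of the ER J protein DNAJB11, dnj-20, read 526.1, 524.9 and 525.6 with RNAi on 174500_at. Set 2 oxygen arrays read 1036.4 and 1150.9, set 1 oxygen arrays 588.3 and 503.3, and the controls 466.5, 548.8, 891.3 and 829.9. The RNAi arrays thus lay below the set 2 arrays of both other groups and among the set 1 arrays. With the block dnj-20 was lower with RNAi than under oxygen by log2 −1.0 (adjusted p = 0.0346) and 1 of 80 members was called lower, against 0.572% of all probe sets; in the fit without the block it was −0.55 ± 0.35 (adjusted p = 0.581). Leaving out each array in turn from the fit with the block kept the call in 2 of 11 fits (adjusted p from 0.0244 to 0.13, log2 from −1.03 to −0.91). The dimmer dnj-20 probe set, 188257_at, had means of 48.8 ± 27.5 under oxygen and 56.6 ± 9.43 with RNAi.

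**Figure D5:**
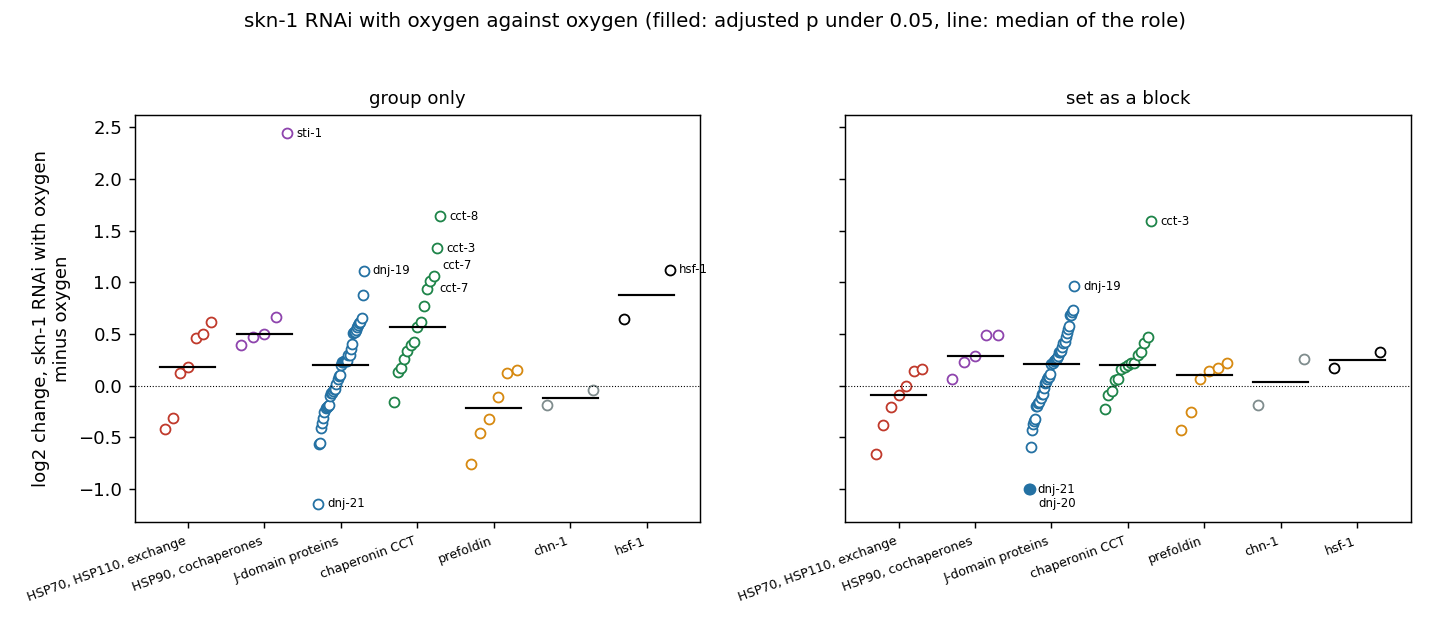
Log2 change in RNAi worms relative to oxygen worms (vertical axis) for the 80 tested probe sets by role, from the fit with group only (left) and after blocking on the array set (right); filled points passed an adjusted p of 0.05 and lines are the medians of the roles. The CCT median is 0.57 on the left and 0.20 on the right, sti-1 leaves the top of the range, and the filled point on the right is dnj-20, which covers that of dnj-21.

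Against untreated controls, worms with skn-1 RNAi and oxygen had 1 member called, dnj-21, which was lower. This comparison shares its arrays with both comparisons above. Called lower were 1 of 80 members (1.25%) against 0.851% of all probe sets, and called higher 0 of 80 against 2.49%. At an unadjusted limma p under 0.05 there were 10 of 80 members (12.5%), against 20.8% of all probe sets. The signal of dnj-21 was 546.6, 417.1, 442.8 and 436.0 in controls and fell 2.53-fold with RNAi and oxygen, to 156.9, 137.1 and 276.1, without overlap. The log2 change was −1.34 ± 0.29 (95% interval −1.98 to −0.70, adjusted p = 0.0359), or −1.20 (adjusted p = 0.0485) after blocking on the set. The call was close to the threshold: it was lost within set 2, at −1.28 and an adjusted p of 0.144, and in 6 of the 11 fits that left out 1 array, those without control 1, 2 or 3, oxygen 1, or RNAi 1 or 2. In these the adjusted p was 0.0511 to 0.158. With the block, leaving out 1 array kept the call in 1 of 11 fits (adjusted p from 0.0229 to 0.147). The oxygen arrays without RNAi (292.9 to 494.7) overlapped the controls.

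After blocking on the set dnj-20 was called as well, at −0.77 (adjusted p = 0.0355), so that 2 of 80 members were lower, against 1.57% of all probe sets. Leaving out 1 array kept this dnj-20 call in 2 of 11 fits (adjusted p from 0.0417 to 0.102), and within set 2 members called lower numbered 0. The next smallest p was that of dnj-19 on 180919_s_at (log2 0.94 ± 0.22, adjusted p = 0.0511). For hsp-70 the difference from controls was 2.53 ± 0.81 (adjusted p = 0.126), and without control 4 it was 3.34 ± 0.49 (adjusted p = 0.0114). The call thus changed with 1 array, and also with the fit. With the replicate number as a block and all arrays kept, hsp-70 was called (2.92, limma adjusted p = 0.0475), as were 8.86% of all probe sets as higher. The RNAi arrays of hsp-70 (40.1 to 59.8) lay within the range of the oxygen arrays. On 189639_at dnj-1 read 316.9, 334.2 and 428.3 with RNAi, above all controls (log2 0.68 ± 0.22, adjusted p = 0.126). The prefoldin subunit pfd-6 read 255.3, 245.4 and 351.5 with RNAi, below the controls at 728.3, 557.6, 414.3 and 397.9 (−0.86 ± 0.30, adjusted p = 0.156). In all, 12 of 80 members were higher without overlap and 5 lower, against 16.9% and 6.69% of all probe sets.

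Several probe sets for a gene give a check within the arrays. Of the 24 genes with more than 1 tested probe set, all estimates for the gene had the same sign in 18 for oxygen against control, in 14 for RNAi with oxygen against oxygen and in 14 for RNAi with oxygen against control. The disagreements included dnj-19, dnj-20 and unc-23, genes nearest to or past the test on 1 of their probe sets. Of the 82 probe sets 34 were of the type shared by several transcripts and 10 of the type with probes that may hybridise elsewhere.

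Other folding genes, from a list chosen with the pathway in mind, behaved similarly in the oxygen comparison. Among 11 tested genes of further HSP70 and HSP90 machinery, such as unc-45, pph-5 and the endosomal J protein rme-8, 0 were called and the median estimate was −0.26. Of 7 ER and mitochondrial chaperone genes, among them the ER HSP70 genes hsp-3 and hsp-4 and the mitochondrial hsp-6 and hsp-60, 0 were called (median −0.11). Small heat shock proteins, which hold clients without ATP, contained the genes past the test. Of 9 tested, hsp-16.2 and hsp-16.41 were called higher with RNAi and oxygen than in controls (adjusted p = 0.0258 and 0.00645), joined by hsp-12.3 under the block; without the block 2.49% of all probe sets were called higher. With the block this share was 2.97%. Within set 2 hsp-16.41 was the only one of these genes called, where 1.48% of all probe sets were called higher. Under oxygen alone the means of hsp-16.2 and hsp-16.41 were 58.3 ± 9.43 and 58.9 ± 24.1, against 15.6 ± 8.80 and 12.58 ± 5.82 in controls (n = 4 each). After blocking on the set hsp-16.41 was called (limma adjusted p = 0.0269) and hsp-16.2 was not (adjusted p = 0.0738). That is 1 of the 9 tested, where 7.39% of all probe sets were called higher. In the RNAi arrays the means were 221 ± 222 and 284 ± 262 (n = 3), so that the spread between these arrays was about as large as the mean. Both control means lay below the 40th percentile of control 3 and of control 4 (36.5 and 45.6). The differences from control were thus taken against dim signals, and no fold is given, as for hsp-70.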

How the data were processed

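The authors deposited an intensity on a linear scale for every probe set of every array; the submitters' processing notes name MAS5 and GCOS 1.4, and the scaling target is not given in the sources used here. Genes were named by the platform annotation. Dim probe sets were left out, keeping those at or above the 40th percentile of an array on 3 or more of the 11, which left 15389 of 22625 probe sets; 1 signal of 0 was set to 0.1. Log2 signals of all 11 arrays were fitted with limma 3.58.1 (R 4.3.3, lmFit and eBayes) with group as the term. Tests were two-sided, adjusted by Benjamini-Hochberg over all tested probe sets. The procedure was first tested on simulated data, with 50 changes each of log2 1, 2, 3 and 4 in the oxygen comparison. It called 6, 24, 41 and 46 of them, with 4 false calls, so most changes of log2 1 were missed. The members and lists were chosen with earlier results of these data known.

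Named genes are hsf-1, hsp-1, hsp-70, hsp-90, hsp-110, sti-1, chn-1, every member called, and per comparison the 5 members, and the member of each role, with the smallest p; other members named are examples. Alternatives were other filters, an offset, quantile normalization, median centring, the array set or the replicate number as a block, fits within a set or of 2 groups, and leaving out each array. Adding the set block to a scaling was chosen after seeing the data. Whether arrays of a group had separate cultures is not stated in the labels, and the p-values reflect the spread among these arrays, which may be technical. Same-numbered control and oxygen arrays deviated together (correlations 0.45 to 0.57), which met the criterion of over 0.1 in every pair. Differently numbered arrays of the same set also correlated (0.35 to 0.53), and within a set the matched correlations were 0.05 and 0.22, so that pairing apart from the set is not shown. The RNAi numbers did not pair (−0.13 to 0).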

Additional observations from a re-analysis of the deposited data

Results flagged for a closer look

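Of 56 groups of 4 arrays examined for a single array far from the rest, 2 had one, and chance gives about 1 in 20. In the controls, hsp-70 read 48.8 on control 4, against 4.5 to 5.5 on the other 3 arrays, a gap of 0.92 of the group's range. Under oxygen, unc-23 on 188334_at read 169.4 on oxygen 4, against 108.0 to 112.7 on the other 3 arrays, a gap of 0.91 of the range.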

How the results depend on the processing

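Array number, 3 or 4 a group, limited precision. In the oxygen comparison hsp-1 and hsp-90 (191090_at) had log2 differences of 0.03 and 0.01 under quantile normalization, alone or with the set block, and hsf-1 (191962_s_at) −0.13. Median centring, which moved the median of all tested probe sets from 0.06 to −0.21, gave −0.15 for hsf-1, −0.06 for chn-1 (173714_at), −0.04 for dnj-20 and a member median of −0.37, alone or with the set block. Within set 2 hsf-1 gave −0.07; within set 1 sti-1 gave 0.07, chn-1 (173714_at) −0.07 and hsf-1 (171962_x_at) 0.20. Members called lower under oxygen were 5 with set block and median centring (6.25%, against 8.97% of all probe sets) and 1 (hsp-75) with set block and quantile normalization (1.25%, against 2.1%), combinations chosen after seeing the data.

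Leaving out 1 array at a time gave 0 to 1 members higher under oxygen (hsp-70, without control 4, and with the set block also unc-23). Without control 4, 522 of 15389 probe sets were called higher under oxygen. With RNAi and oxygen 0 to 2 members were higher and 0 to 1 lower than in controls. Log2 differences under oxygen then ran from −0.28 to 0.07 for hsp-1, −0.29 to 0.09 for hsp-90 (191090_at), −0.96 to 0.64 for sti-1, −0.06 to 0.38 and −0.01 to 0.49 for chn-1, and −0.28 to 0.18 and −0.23 to 0.51 for hsf-1; against control, chn-1 (184586_s_at) in RNAi worms ran from −0.05 to 0.40. Over all tested probe sets, the count higher under oxygen was 29 to 1137 and lower 1 to 288 over the other single changes of setting; with RNAi it was 4 to 28 and 10 to 88 against oxygen, and 195 to 1364 and 58 to 322 against control. Leaving out 1 array gave 284 to 522 and 41 to 73 for oxygen, 3 to 14 and 13 to 43 for RNAi against oxygen, and 87 to 494 and 32 to 146 against control. Set block with median centring gave 1380 lower under oxygen and 499 lower with RNAi than in controls.

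For RNAi with oxygen against oxygen, 1 member (dnj-19) was higher under the stricter filter or the offset of 32. There 22 of 10104 and 28 of 15389 probe sets were called higher. Lower was 1 member (dnj-20, 1.25%) under the set block, alone or with either scaling. Of all probe sets 0.572% were lower under the block alone, 0.474% with median centring and 0.494% with quantile normalization. The member median was 0.11 under quantile normalization and 0.05 under median centring. Against control, members lower were 0 with no filter, within set 2 and with only the 2 groups. Of all probe sets 67 of 22548 were lower with no filter and 0.377% within set 2. They were 2 (2.5%) under the set block, alone or with either scaling. Of all probe sets 1.57% were lower under the block alone, 3.24% with median centring and 1.86% with quantile normalization. Members higher were 1 (dnj-19) under the stricter filter, the offset and quantile normalization, the last alone or with the set block. Under quantile normalization 208 of 15389 probe sets were called higher. Over all the single changes of setting, the stricter filter and the offset among them, this count was 195 to 1364. With the set block added it was 1.96% of all probe sets, against 1.25% of the members. The member median there was −0.24 under median centring, 0.05 under the set block, 0.07 within set 2, −0.19 with set block and centring and 0.06 with set block and quantile normalization; chn-1 (184586_s_at) was −0.21 under median centring. With the replicate block 3 members were higher than in controls (dnj-19, dnj-29 and hsp-70; 3.75%, against 8.86% of all probe sets) and 1 lower (1.25%, against 1.98%); this replicate block changed no other count of members called. Causes were not tested.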
